A study of Mus musculus with 6 samples.

Results

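Type I interferon response genes are the genes that cells switch on when interferon alpha or beta binds its receptor. A list of 32 such genes was described in RNA sequencing libraries of mouse tumours, and was taken by matching Ensembl gene identifiers to mouse symbols. All 32 were found once among the 37991 genes counted, and all 32 passed the filter on low counts. The tumours derived from a cutaneous squamous cell carcinoma line, a cancer of skin keratinocytes, and 3 libraries carried the genotype label Kindlin-1 WT and 3 the label Kindlin-1 Null, a knockout. No treatment, time or age is given, nor how many clones stand behind each genotype. Kindlin-1, the product of Fermt1, is an adaptor that binds beta integrin tails. By their titles, 2 wild-type libraries (1 and 2) came from 1 numbered mouse and 2 null libraries (2 and 3) from another, so each group may hold 2 animals. The deposited file of null library 3 carries a further number. The main test treated the 6 libraries as independent. Its p-values therefore reflect the spread among libraries, which may be partly technical, and not the spread among animals.

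Reads assigned to genes ranged from 161711 in wild-type library 2 to 31487255 in null library 2. The targeted gene, Fermt1, was counted 16, 2 and 1040 times in wild type (libraries 1 to 3) and 0, 2 and 2 times in null tumours. The 10 keratinocyte markers summed to between 200.3 and 312 CPM (counts per 1e6 reads in genes, scaled by edgeR's TMM factors) in wild type and to between 182 and 230 CPM in null tumours. Most of this came from Itga6 and Perp, which other cells also express, while Krt5 and Epcam stayed at or below 3.9 CPM in all 6 libraries. Of the 8 that were tested, Krt15 rose and Krt14 and Perp fell. The 7 skeletal muscle markers summed to between 498 and 1227 CPM in the wild-type libraries and to between 30.9 and 90.9 CPM in the null libraries, and 6 of the 7 fell. The 10 macrophage and monocyte markers summed to between 1718 and 3870 CPM in wild type and 3891 and 5736 CPM in null tumours. Of these 10, 0 were called in either direction, against 5.79% of all genes tested (2.26% higher and 3.52% lower in null tumours). Among other leukocyte markers Prf1 (1 of 6 tested T and NK markers), S100a9 (1 of 4 neutrophil markers) and Ccr7 (1 of 6 conventional dendritic markers) rose and Itgax, also a dendritic marker, fell. In bulk tumours, fewer cells of a type and less RNA per cell cannot be told apart.

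The pathway works as a relay. Sensors of foreign or misplaced nucleic acid drive production of interferon alpha and beta, which act through the receptor chains Ifnar1 and Ifnar2 and the kinases Jak1 and Tyk2. These lead to a complex holding Stat2 and Irf9 that binds the interferon-stimulated response element, a short DNA sequence near many of the genes listed. In tumours such genes can be expressed by cancer cells, stroma and infiltrating leukocytes.

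The element is a sequence feature that part of the list shares. Because the genes were chosen as interferon-stimulated, many matches could be foreseen, and their share is a description of the list only. Promoter windows from RefSeq (build GRCm38.p6), from 250 bases before to 50 bases after the start of the gene, were at hand for 21 of the 32 genes. The core motif, 2 copies of GAAA with any 2 bases between them, was searched on both strands, so TTTC with the same spacing also counts, and overlapping matches were allowed. It was found in 11 of the 21 genes (52.4%), and in 3.99% of all 27025 genes with a window. By window the shares were 12 of 24 (50%) and 3.44% of all 32851. A match is a description of letters, not a binding site. The stretches below come from genes with a match before the start, and run from the lowest log2 fold change among these (Stat2) to the highest (Isg15); in Ifih1 and Ddx58 the match lay after the start. Each is written 5′ to 3′ in the direction of the gene, and capitals mark the motif.
Isg15, chr4:156200863-156200908, minus strand: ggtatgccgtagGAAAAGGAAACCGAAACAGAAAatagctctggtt
Ifit1, chr19:34640773-34640825, plus strand: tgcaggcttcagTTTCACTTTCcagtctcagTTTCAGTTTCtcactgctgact
Bst2, chr8:71537575-71537614, minus strand: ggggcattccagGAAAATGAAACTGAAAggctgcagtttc
Oas1a, chr5:120907526-120907557, minus strand: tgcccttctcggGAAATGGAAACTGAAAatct
Stat2, chr10:128270264-128270297, plus strand: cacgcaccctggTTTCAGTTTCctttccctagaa
Isg15 held 3 overlapping matches, Ifit1, Bst2 and Oas1a held 2 each, and Stat2 held 1. The first match lay 78 bases before the start in Isg15, 104 in Ifit1, 130 in Bst2, 20 in Oas1a and 222 in Stat2. For Bst2, Oas1a and Stat2 the sequence at the start was not found near the beginning of a transcript in the GENCODE annotation. Their distances are therefore less certain. Log2 fold changes (null minus wild type) of the 11 genes with a match ran from -0.79 to 0.86 with a median of 0.27. Those of the 10 genes with a window but no match ran from -0.64 to 0.64 with a median of 0.32.

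Null and wild-type tumours showed no called difference in any of the 32 interferon response genes. By edgeR's quasi-likelihood fit, adjusted by Benjamini-Hochberg over 11887 genes, 0 of the 32 were called, against 5.79% of all genes tested (2.26% higher and 3.52% lower in null tumours). The lowest adjusted p was 0.102. At an unadjusted p under 0.05 stood 5 of the 32, against 25.1% of all genes. Of these, Ifih1 and Ifi35 had higher null values (12.1% of all genes) and Ddx58, Oas2 and Stat2 lower ones (13%). DESeq2 called 0 of the 32, against 5.42% of all genes (2.3% higher and 3.12% lower). At an unadjusted p under 0.05 by DESeq2 stood 3 of the 32, against 2346 of all 22300 genes with a p-value. This base is wider than the 12722 genes behind the 5.42%. It takes in genes with low counts, so it is not a like background for the 32. limma-voom with the numbered mouse as a random term called 1 of the 32, Stat2, which was lower, against 9.72% of all genes (5.39% higher and 4.33% lower). That fit estimated a correlation of 0.597 between libraries of the same numbered mouse, which the main test left out. The log2 fold change was positive for 20 genes and negative for 12, and 50.7% of all genes were positive. The median was 0.27, against 0.01 over all genes tested. The median size of the change without its sign was 0.41 for the list and 0.43 for all genes.

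A missed threshold does not show equal expression, so each difference is given with its 95% interval. The intervals of 11 of the 32 genes lay wholly within 2-fold in both directions. A difference of 2-fold or more upwards lay outside the interval for 19 genes and one of 2-fold or more downwards for 24. No gene had an interval that reached 2-fold both ways. The intervals spanned between 1.04 and 2.01 log2 units.

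**Figure D1:**
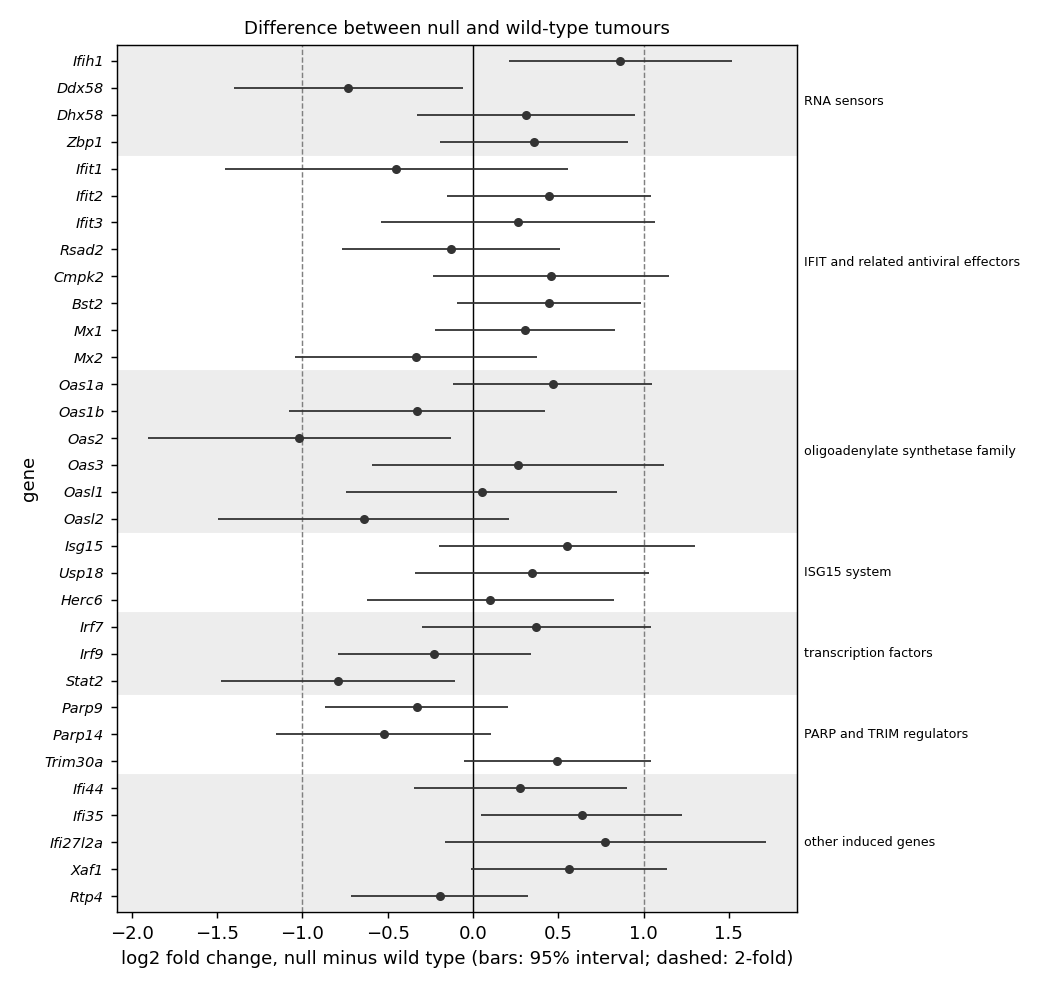
Log2 fold change of each of the 32 genes, null minus wild type (x axis), with its 95% interval from edgeR's quasi-likelihood fit, 3 libraries per group; dashed lines mark 2-fold and grey bands separate the roles. The points run from -1.02 (Oas2) to 0.86 (Ifih1), and 5 intervals exclude zero before adjustment.

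Values of all 3 null libraries lay above all 3 wild-type values for 9 genes, against 16.2% of all genes tested. They lay below for 1 gene, against 14.3%, and overlapped for 22. The 9 were Ifih1, Ifit2, Cmpk2, Bst2, Mx1, Oas1a, Trim30a, Ifi35 and Xaf1, and the 1 was Oasl2. Together these 10 genes, against 30.5% of all genes without overlap, come from 5 of the 7 roles.

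**Figure D2:**
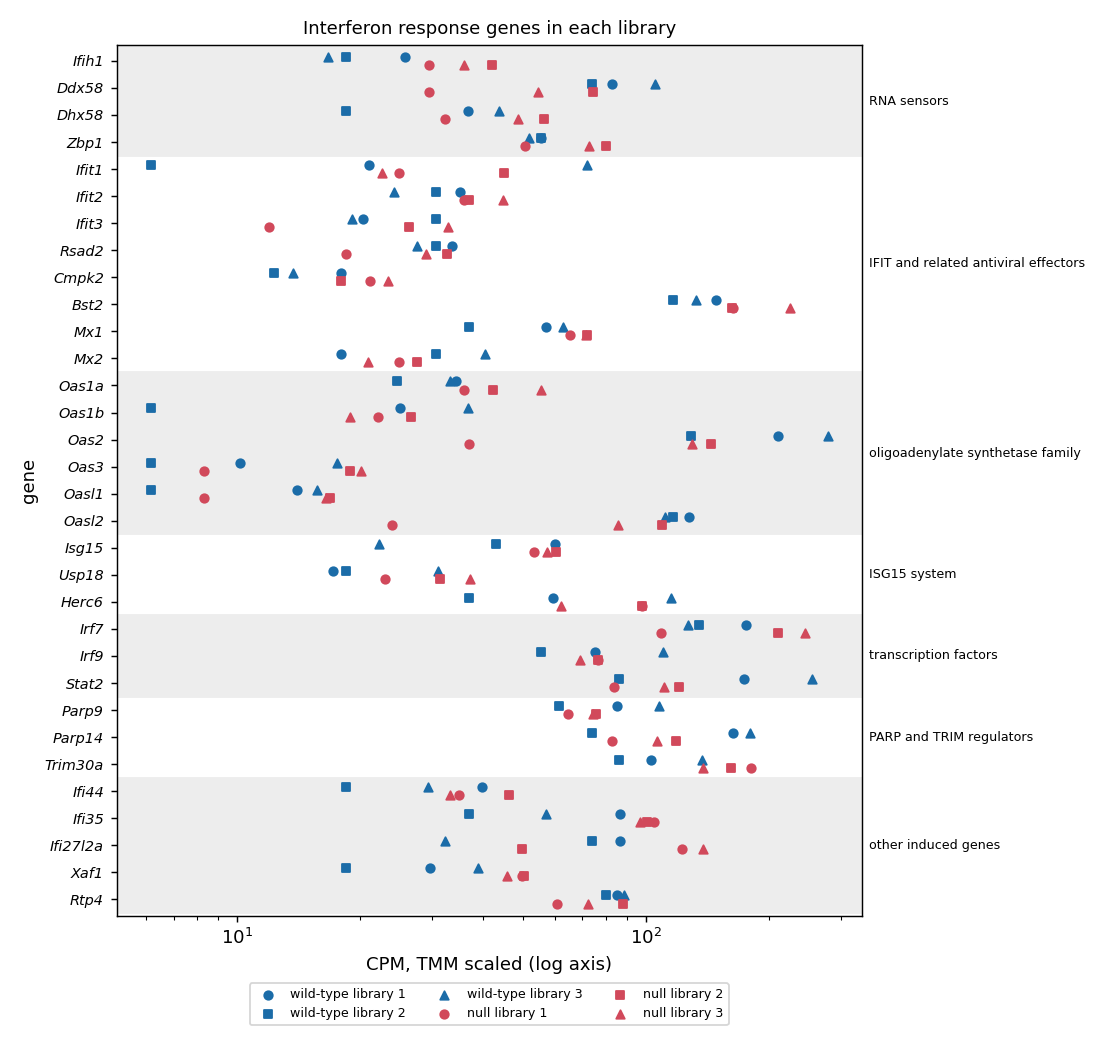
TMM-scaled CPM of each gene in each library on a log axis, wild type in blue and null in red, with 1 symbol per library and grey bands by role. Blue and red points interleave for 22 of the 32 genes, and the low blue squares are wild-type library 2, which had between 1 and 22 reads per gene.

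Log2 fold changes of the sensors on the list differed in sign, and 0 of 4 were called (5.79% of all genes). A difference between sensors was not tested. Ifih1 (ENSMUSG00000026896) encodes MDA5, a sensor of long double-stranded RNA, and stood at 25.8, 18.4 and 16.7 CPM in wild-type libraries 1 to 3 and at 29.5, 42 and 36 CPM in null libraries 1 to 3. All null values lay above the wild-type values, and the log2 fold change was 0.86 (95% interval 0.21 to 1.52, edgeR adjusted p = 0.102, range over 14 alternatives 0.0532 to 0.363). Ddx58 (ENSMUSG00000040296) encodes RIG-I, a sensor of RNA with a 5′ triphosphate. It stood at 82.8, 73.7 and 105 CPM in wild type and 29.5, 74.3 and 54.5 CPM in null tumours, where library 2 reached the lowest wild-type value. Its log2 fold change was -0.73 (95% interval -1.4 to -0.06, edgeR adjusted p = 0.164).

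The ratio of Ddx58 to Ifih1 reads does not depend on library scaling, and was looked at after the values were seen. It came to 3.21, 4 and 6.33 in wild type and to 1, 1.77 and 1.51 in null tumours, so the groups did not overlap. The genes had been seen to differ in direction beforehand, so this separation adds no support to either difference. The share of other gene pairs that separate was not computed. In wild-type library 2 it rests on 12 and 3 reads. Dhx58, encoding LGP2, a relative of both sensors, stood at 36.7, 18.4 and 43.7 CPM in wild type and 32.2, 56.4 and 48.6 CPM in null tumours, with overlap (log2 fold change 0.31, edgeR adjusted p = 0.533). Zbp1, a sensor of Z-form nucleic acid, stood at 55.4, 55.3 and 51.7 CPM in wild type, the tightest wild-type group named here, and at 50.7, 79.7 and 72.6 CPM in null tumours (0.36, adjusted p = 0.396).

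Among the antiviral effectors, 0 of 8 passed the test (5.79% of all genes), and the null values lay above the wild-type values in 4 (16.2% of all genes). Bst2 (ENSMUSG00000046718), tetherin, holds budding virus at the cell surface and was among the most abundant members. It stood at 148, 117 and 133 CPM in wild type and 163, 163 and 225 CPM in null tumours. The null libraries were the 3 highest, with a log2 fold change of 0.45 (95% interval -0.09 to 0.99, edgeR adjusted p = 0.279). Mx1, a dynamin-like GTPase that blocks viral replication, stood at 57, 36.9 and 62.8 CPM and at 65.4, 71.9 and 71.2 CPM (0.3, adjusted p = 0.457).

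Rsad2 (viperin) and Cmpk2, neighbouring genes that act on nucleotides, gave opposite signs. Rsad2 stood at 33.6, 30.7 and 27.6 CPM in wild type and 18.4, 32.6 and 28.9 CPM in null tumours, with overlap (log2 fold change -0.13, edgeR adjusted p = 0.821). Cmpk2 ranged from 12.3 to 18 CPM in wild type and from 18 to 23.4 CPM in null tumours (0.46, adjusted p = 0.384), with null library 2 just above wild-type library 1. The IFIT genes, which bind viral RNA, had no call. Ifit2 and Ifit3 had log2 fold changes of 0.44 and 0.26 and Ifit1 of -0.45, and their adjusted p values were between 0.33 and 0.687. Ifit1 stood at 21.1, 6.14 and 71.9 CPM in wild type and 24.9, 45 and 22.6 CPM in null tumours, where 6.14 CPM is 1 read in wild-type library 2. Its sign rested on wild-type library 3, since without it the log2 fold change was 0.80, and Ifit3 turned to -0.053 without null library 3. Mx2 had a log2 fold change of -0.34 (adjusted p = 0.546), and 0.25 without wild-type library 3.

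Active oligoadenylate synthetases make the second messenger that activates the RNA-degrading enzyme RNase L, though not every family member does so. None of the 6 family members passed the test (5.79% of all genes did), and signs were split 3 to 3. Oas2 (ENSMUSG00000032690) had the most negative log2 fold change on the list, -1.02 (95% interval -1.91 to -0.13, edgeR adjusted p = 0.146, range over 14 alternatives 0.0784 to 0.409). It stood at 211, 129 and 279 CPM in wild type and 36.8, 144 and 130 CPM in null tumours. Null library 1 was far below the other 5, while null libraries 2 and 3 lay just above the lowest wild-type value. Without null library 1 the log2 fold change was -0.67 (edgeR adjusted p = 0.311).

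Oasl2, a family member with ubiquitin-like domains, stood at 127, 117 and 111 CPM in wild type and 24, 110 and 85.4 CPM in null tumours. All null values lay below the wild-type values, although null library 2 came within 2 CPM of wild-type library 3. The log2 fold change was -0.64 (95% interval -1.5 to 0.21, edgeR adjusted p = 0.326). Without null library 1 it was -0.28. Oas1a (ENSMUSG00000052776) went the other way, with 34.4, 24.6 and 33.2 CPM in wild type and 35.9, 42.3 and 55.3 CPM in null tumours (0.47, adjusted p = 0.296). The ratio of Oas2 to Oas1a was also looked at after the values were seen. It was 6.14, 5.25 and 8.4 in wild type and 1.03, 3.41 and 2.35 in null tumours, without overlap. This pair too had been seen to differ in direction, so the separation adds no support to either difference. Oasl1 stood at 14.1, 6.14 and 15.7 CPM in wild type and 8.29, 16.9 and 16.5 CPM in null tumours, the smallest difference on the list (0.05, adjusted p = 0.946). Oas1b and Oas3 had log2 fold changes of -0.33 and 0.27, and Oas1b turned to 0.091 without wild-type library 3. All 3 had 1 read in wild-type library 2. Reads of close copies such as Oas1a and Oas1b can be split or dropped in counting, so single members are uncertain.

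ISG15 is a ubiquitin-like protein attached to other proteins, Herc6 is its main ligase in mouse and Usp18 removes it and damps the receptor. Isg15 (ENSMUSG00000035692) stood at 60.1, 43 and 22.2 CPM in wild type and at 53.4, 60.2 and 57.3 CPM in null tumours. The null values were tight, and wild-type library 1 lay among them (log2 fold change 0.55, 95% interval -0.2 to 1.3, edgeR adjusted p = 0.336). The value rested on wild-type library 3, the lowest. Without that library it was 0.02 (edgeR adjusted p = 0.985), and without wild-type library 1 it was 1.19 (0.0538). Usp18 stood at 17.2, 18.4 and 31 CPM and at 23, 31.4 and 37.2 CPM (0.34, adjusted p = 0.52). Herc6 stood at 59.3, 36.9 and 115 CPM and at 97.6, 98.1 and 62 CPM (0.1, adjusted p = 0.879).

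The 3 transcription factors on the list gave 0 calls (5.79% of all genes) and both signs. Irf7 (ENSMUSG00000025498), which amplifies interferon alpha production, stood at 176, 135 and 127 CPM in wild type and 109, 211 and 245 CPM in null tumours, which held both the lowest and the highest values (log2 fold change 0.37, edgeR adjusted p = 0.475). Stat2 (ENSMUSG00000040033) stood at 174, 86 and 255 CPM in wild type and 83.8, 120 and 111 CPM in null tumours. The groups overlapped through wild-type library 2, with 14 reads (-0.79, 95% interval -1.48 to -0.11, edgeR adjusted p = 0.144). In limma-voom with the numbered mouse as a random term it was lower, at -1.07 (adjusted p = 0.0451). With the libraries of each repeated mouse summed it was not called (edgeR adjusted p = 0.157, or 0.0762 with only the wild-type mouse summed). Leaving out wild-type library 3 gave -0.46 on the log2 scale, and adjusted p over the 14 alternatives ranged from 0.0451 to 0.395. Its partner Irf9 had a log2 fold change of -0.23 (adjusted p = 0.616), and of 0.067 without wild-type library 3. The ratio of Stat2 to Irf9 was also looked at, beside those of Ddx58 to Ifih1 and Oas2 to Oas1a. It was 2.32, 1.56 and 2.31 in wild type and 1.1, 1.58 and 1.6 in null tumours, with overlap.

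Of the PARP and TRIM genes 0 of 3 passed (5.79% of all genes). Parp9 and Parp14, ADP-ribosyltransferase family proteins, had log2 fold changes of -0.33 and -0.52 (edgeR adjusted p = 0.424 and 0.279). Parp9 stood at 85.1, 61.4 and 108 CPM in wild type and 64.5, 75.4 and 74.4 CPM in null tumours, inside the wild-type range. Trim30a, a regulator of innate signalling, stood at 103, 86 and 137 CPM and at 181, 162 and 138 CPM, with every null value above the wild-type values (0.49, adjusted p = 0.242). Null library 3 and wild-type library 3 differed by under 1 CPM.

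Of the 5 remaining induced genes 4 had positive signs (50.7% of all genes), with 0 calls (5.79% of all genes). Ifi35 (ENSMUSG00000010358), an interferon-induced leucine zipper protein, stood at 86.7, 36.9 and 56.9 CPM in wild type and 105, 101 and 97 CPM in null tumours. The null values were close together and all above wild type (log2 fold change 0.64, 95% interval 0.05 to 1.23, edgeR adjusted p = 0.168). Ifi27l2a (ENSMUSG00000079017), a small interferon-induced protein, stood at 86.7, 73.7 and 32.3 CPM and at 123, 49.9 and 138 CPM. Null library 2 lay between wild-type values, and the log2 fold change of 0.78 had a wide interval (-0.17 to 1.72, adjusted p = 0.282). Without wild-type library 3 it was 0.27 (edgeR adjusted p = 0.785) and without wild-type library 1 it was 1.34 (0.109). Xaf1, a pro-apoptotic factor, ranged from 18.4 to 38.8 CPM in wild type and 45.8 to 50.5 CPM in null tumours (0.56, adjusted p = 0.21). Ifi44 and Rtp4 had log2 fold changes of 0.28 and -0.2.

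Levels per kilobase of exon, averaged over the 6 libraries, ran from 1.91 (Oas3) to 181 CPM per kilobase (Ifi27l2a) with a median of 13.2. Bst2 followed at 175, Isg15 at 65.3, Ifi35 at 46.6 and Irf7 at 44.3 CPM per kilobase. At the low end stood Ifih1 (3.44), Cmpk2 (4.27) and Oasl1 (4.96). On this scale the most abundant messages encoded small effector proteins and Irf7, and the sensor Ifih1 was near the bottom. The order depends on the scale, since dividing by exon length raises short genes. By mean CPM alone the highest were Irf7 (167), Bst2 (158) and Oas2 (155), and Isg15 stood at 49.4.

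Spread between libraries was next compared with that of all genes. The median coefficient of variation was 34.6% within wild type and 19.1% within null tumours for the list, and 32.2% and 18.9% for all genes tested. edgeR's biological coefficient of variation had a median of 0.237 for the list and 0.244 for all genes. Among the 11 genes with at least 10 reads in every library, the ratio of highest to lowest library had a median of 2.44, from 1.45 (Rtp4) to 7.57 (Oas2).

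Wild-type library 2 was the lowest for 17 genes, and in it 21 of the 32 genes had under 10 reads. Wild-type library 3 was the highest for 11 genes, among them Oas2, Stat2 and Ifit1, yet the lowest for 4, among them Isg15 and Ifi27l2a. Null library 1 was the lowest for 9, among them Oas2, Oasl2 and Ddx58, and the highest for 2. Null libraries 2 and 3 were the highest for 8 and 9 genes and the lowest for 0. Summed over the list the libraries held 2214, 1573 and 2435 CPM in wild type and 1787, 2321 and 2294 CPM in null tumours, ranges that overlapped.

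**Figure D3:**
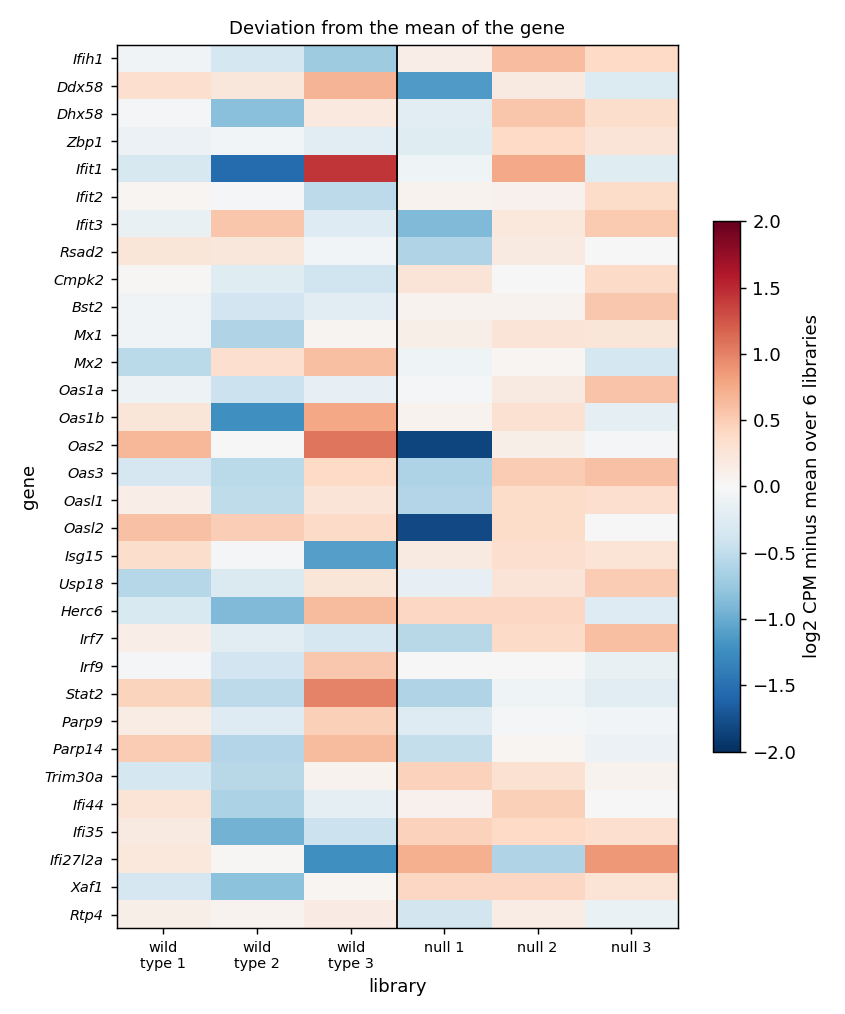
Log2 CPM of each gene minus its mean over the 6 libraries (colour, with 0.5 reads added; red above the mean, blue below), genes in rows and libraries in columns. Oas2 and Oasl2 in null library 1 and Ifit1 in wild-type library 2 (1 read) are the darkest blue cells, and no column is of one colour throughout.

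Longer genes tended to lower log2 fold changes. The 8 shortest genes (463 to 2131 bases of exon in the GENCODE annotation) had a median log2 fold change of 0.46, and 6 were positive, among them Ifi27l2a, Isg15, Bst2 and Ifi35. The 8 longest (5926 to 9306 bases) had a median of -0.21, and 4 were positive. Across the 32 genes Spearman's rho between exon length and log2 fold change was -0.39. Across the 11720 tested genes with a length it was -0.25. These are correlations across genes, which share the same 6 libraries and are not independent replicates. Among the 8 longest, Ifih1, Oas3, Ifi44 and Herc6 had positive values, and Ifih1, 8165 bases long, had the highest of all 32. The part of length in the differences was not tested. Lars2, a gene for a mitochondrial tRNA-charging enzyme, held 0.473%, 0.799% and 1.85% of gene reads in wild type and 0.125%, 0.166% and 0.0417% in null tumours. Its part in the differences, and that of the muscle, leukocyte and keratinocyte markers given above, was not tested.

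**Figure D4:**
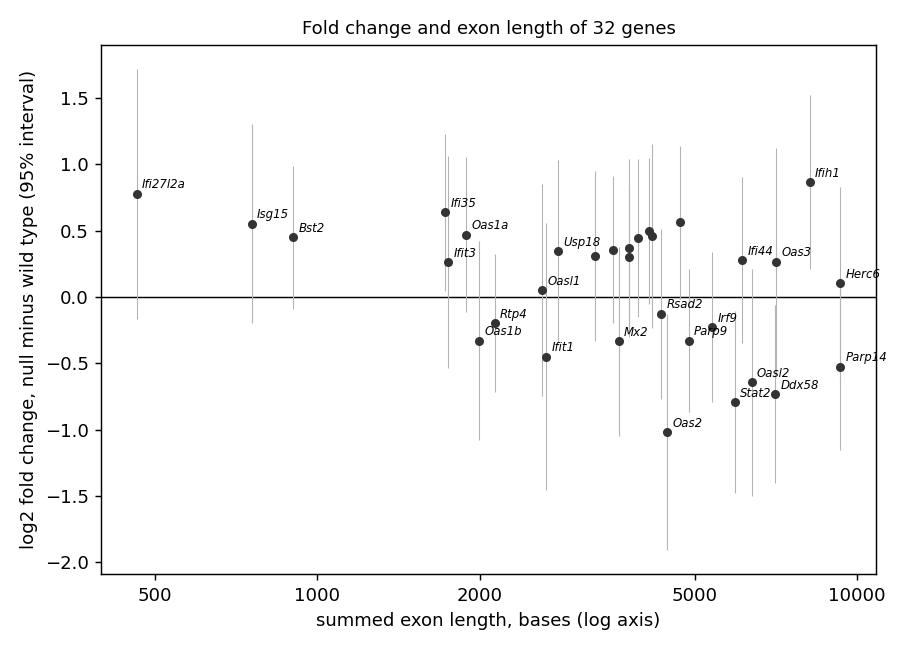
Log2 fold change, null minus wild type, against summed exon length in bases (log axis) for the 32 genes, with 95% intervals as bars; some mid-length genes carry no name, to keep the labels apart. The 3 shortest genes lie above zero, and Stat2, Oasl2, Ddx58 and Parp14 among the 8 longest lie below.

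Upstream of the list, the interferon transcripts that could be matched were at the limit of detection. Of 21 ligand genes 11 were matched, none passed the filter on low counts, and 7 had 0 reads in all 6 libraries (Ifna2, Ifna4, Ifna12, Ifna13, Ifnk, Ifnl2 and Ifnl3). A count of 0 in all libraries allows up to 0.0544 CPM (3 reads over the summed totals), for counting error only. The unmatched ligand genes could not be assessed. Reads of close copies, such as the interferon alpha genes, can be split or dropped in counting, so zeros there are uncertain. Ifnb1, interferon beta, had 0 reads in wild type and 1, 1 and 0 reads in null tumours. Ifng, interferon gamma, had 1, 0 and 4 reads in wild type and 0, 7 and 4 in null tumours. The 8 markers of plasmacytoid dendritic cells, known for interferon alpha, summed to between 365 and 429 CPM in wild type and 309 and 365 CPM in null tumours. Tcf4, Irf8 and Runx2, which other cells also express, carried most of this. They were the 3 that could be tested, with 0 called (5.79% of all genes). The more restricted Siglech and Ccr9 stayed at or below 3.54 and 1.77 CPM.

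Receptors and kinases were all well detected but for Ifnlr1, the interferon lambda receptor, with 1 read in all. Of 8 tested, 0 passed (5.79% of all genes). Ifnar1 stood at 134, 135 and 97.4 CPM in wild type and 82.9, 108 and 103 CPM in null tumours (log2 fold change -0.28, 95% interval -0.81 to 0.26, edgeR adjusted p = 0.508). Ifnar2 ranged from 62.3 to 117 CPM and from 74.2 to 93 CPM (95% interval -0.6 to 0.59, adjusted p = 0.999). Jak1 had a log2 fold change of 0.31 (adjusted p = 0.489) and Tyk2 of -0.6 (0.21).

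Sensors and adaptors outside the list gave 0 calls among 23 tested, against 5.79% of all genes. Cgas, the DNA sensor, ranged from 6.14 to 16.7 CPM in wild type and from 15.9 to 20.3 CPM in null tumours (log2 fold change 0.13, edgeR adjusted p = 0.842). Its adaptor Sting1 ranged from 61.4 to 87.5 CPM and from 53.4 to 87.2 CPM (0.03, adjusted p = 0.959). Mavs, the adaptor of both RIG-I and MDA5, stood at 43.7, 86 and 43.4 CPM in wild type and 23, 39.6 and 40.9 CPM in null tumours, all lower (-0.48, adjusted p = 0.352). Of these 23 genes, 6 had all null values below wild type, against 14.3% of all genes, and 1 had all above.

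A few of them were picked out after their values were seen. Tbk1, the kinase that activates Irf3 and Irf7, stood at 67.9, 73.7 and 92.8 CPM in wild type and at 50.7, 50.6 and 49.2 CPM in null tumours, without overlap (log2 fold change -0.67, edgeR adjusted p = 0.106). The related kinase Ikbke had a log2 fold change of -1.02 (adjusted p = 0.105), with overlap. Rnaseh2c, a subunit of the enzyme that clears RNA from DNA hybrids, stood at 25.8, 18.4 and 15.9 CPM in wild type and 47, 38.3 and 39.2 CPM in null tumours. It missed the threshold (1.07, 95% interval 0.42 to 1.71, edgeR adjusted p = 0.0539), passed as higher without wild-type library 1 (edgeR adjusted p = 0.0339) and with the numbered mouse as a random term (limma-voom adjusted p = 0.0314). It did not pass with the libraries of each repeated mouse summed (adjusted p = 0.145 by edgeR), with those of the wild-type mouse alone summed (0.0753) or without wild-type library 3 (0.238). Trex1, a DNA-degrading enzyme, was listed at 0 in all libraries, and its exons overlap those of Atrip on the same strand in the later annotation.

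Other transcription factors (0 of 9 called) and negative regulators (0 of 10 called) were likewise without a call, against 5.79% of all genes. Irf3, which starts the first wave of interferon beta, stood at 93.7, 43 and 83.3 CPM in wild type and 135, 95.9 and 119 CPM in null tumours, where all values were higher (log2 fold change 0.54, edgeR adjusted p = 0.238). Isg20, an interferon-induced exonuclease that the list of negative regulators also holds, was picked out after its values were seen. It passed as higher in 1 of the 14 alternatives, when wild-type library 1 was left out (1.57 on the log2 scale, edgeR adjusted p = 0.0254, against 0.283 with all libraries). Without wild-type library 3 it was 0.093 (edgeR adjusted p = 0.967). Of 14 tested genes led by interferon gamma, 0 passed (5.79% of all genes), with a median log2 fold change of -0.22. Cxcl9, a chemokine for T cells picked out after its values were seen, stood at 27.3, 36.9 and 7.3 CPM in wild type and 2.76, 7.73 and 6.49 CPM in null tumours. Its log2 fold change was -1.5 (95% interval -2.73 to -0.27, edgeR adjusted p = 0.126), and wild-type library 3 lay within the null range. Without that library it passed as lower (-2.20, edgeR adjusted p = 0.0212), while limma-voom with the random term gave -0.35 (adjusted p = 0.646).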

How the data were processed

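The authors deposited raw counts of reads for each Ensembl gene in separate tables for the 6 libraries, with 5 closing lines for reads in no single gene, which stayed out of library sizes (not uniquely aligned reads were 32.9% to 40% of listed reads). TopHat2, Cuffdiff, DESeq2 and mm9 are named per the submitters' processing notes; for the counting program, annotation and strand use, the entry is: not given in the sources used here, so overlapping genes, such as Parp9 with Dtx3l and Irf9 with Rnf31, cannot be separated. Symbols and exon lengths came from GENCODE M21 on GRCm38, and 32919 of 37991 identifiers (86.6%) matched. Promoter coordinates are of GRCm38.p6 (RefSeq).

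Counts were tested in R 4.3.3 with edgeR 4.0.16 (TMM scaling, default expression filter, robust quasi-likelihood fit, Benjamini-Hochberg adjustment at 0.05). The fit was first run on simulated counts drawn as independent libraries. That run cannot tell how the test behaves when libraries share a mouse. CPM values are TMM scaled. Standard errors were the log2 fold change over the square root of F, and gave the 95% intervals. Alternatives used DESeq2 1.42.0 and limma 3.58.1. Groups follow the genotype label. The members and lists were chosen with earlier results of these data known. Members given with all 6 values are those called, the 2 most abundant per role, the 3 largest and 3 smallest changes, and any with over 4-fold range within a group of at least 10 reads each. Others so given, such as Ddx58 and Ifit1, were added after their values were seen. The floor of 3 reads covers counting error only. Of the pathway genes meant to be named, 1 is not reported here.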

Additional observations from a re-analysis of the deposited data

How the results depend on the processing

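The count of interferon response genes called higher in null tumours was 0 under all 14 alternatives, and the count called lower was 0 except with limma-voom and the numbered mouse as a random term, where it was 1 (Stat2, log2 fold change -1.07). The median log2 fold change stayed positive, from 0.12 (null library 2 left out, or the libraries of each repeated mouse summed) to 0.36 (null library 1 left out). It moved by less than 0.225 log2 units, the pooled standard deviation within groups of the list's median deviation per library. That yardstick is nearly as large as the median itself (0.27), so staying within it does not show that the median is stable. Of the 32 genes 24 kept their sign in every fit and 8 did not (Ifit1, Ifit3, Rsad2, Mx2, Oas1b, Oasl1, Herc6 and Irf9). With 1 library left out the number of all genes changed ranged from 179 to 855, against 688, and with the random term it was 1156. The number of upstream and feedback genes changed ranged from 0 to 2 with 1 library left out, against 0, and was 1 with the random term. Of 27 named genes 21 kept their sign in all 14 alternatives. With 1 library left out the log2 fold change ranged for Herc6 from -0.094 to 0.65, Oasl1 from -0.12 to 0.23, Ifnar2 from -0.27 to 0.15, Sting1 from -0.11 to 0.20 and Rsad2 from -0.33 to 0.018. Summing the libraries of each repeated mouse gave log2 fold changes for Oasl1 of -0.12, Ifnar2 of 0.10 and Sting1 of -0.13. Summing those of the wild-type mouse alone gave log2 fold changes for Oasl1 of -0.0087, Herc6 of -0.057, Ifnar2 of 0.10 and Sting1 of -0.014. The random term gave log2 fold changes for Rsad2 of 0.0082, Herc6 of -0.13, Ifnar2 of 0.22, Cgas of -0.014 and Sting1 of -0.0089. The cause was not tested. No paired analysis was possible because the groups share no mouse number and the labels carry no replicate numbers. In wild-type library 2 a floor of 3 reads stood at 18.4 CPM, above the level of several genes on the list, so single values there are coarse.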
